A study of Mus musculus with 4 samples.

Results

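The 39 genes described here act in the folding and export of proteins by the endoplasmic reticulum (ER). They cover ER chaperones, enzymes of oxidative folding, the sensors of unfolded protein, genes of ER-associated degradation, the translocon with its signal peptide enzymes, and the coat of the vesicles that leave the ER. They form a list by function, which was drawn up with earlier results of these data known, and their RNA was read on 4 Agilent arrays with a single dye. Probes were matched for 38 of them, 72 probes in all, out of 18749 genes matched on the arrays, and no probe was matched for Pdia3, a disulphide isomerase. All 38 were well above background on all 4 arrays, so no filter on dim probes removed any of them.

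The arrays held RNA of T helper (Th) cells that were grown in IL-2 for 5 days from naive CD4 T cells of C57BL/6J spleens. WT mice are labelled as Bach2 WT with no further allele. The paper names CD4-Cre mice as its WT controls for the lungs, and the labels do not say whether these WT cells carried Cre. Bach2-deficient mice carry Bach2flox/flox with a CD4-Cre transgene, in which the Cd4 promoter drives Cre, so that Bach2 is removed from T cells and kept in other cells. Cells of both genotypes were first stimulated for 2 days with antibodies against TCR-β and CD28 and were kept in IL-2 for 3 more days. They were collected either without further treatment or after 4 h on an immobilized anti-TCR-β mAb without added IL-2. The study's methods describe adult mice, and whether cells of several mice were pooled is not given in the sources used here. There was 1 array per condition, so no difference below has a replicate check and no test between conditions was made.

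The ER folds the proteins that a cell secretes or places on its surface. When unfolded protein builds up, the sensors Ern1 (Ire1α), Atf6 and Eif2ak3 (Perk) start the unfolded protein response, which raises chaperones, folding enzymes and degradation genes through the factors Xbp1, cleaved Atf6 and Atf4. The response is best known in plasma cells, and T cells that turn to cytokine secretion also draw on it.

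Many of these genes share short promoter elements through which Atf6 and Xbp1 act. In the RefSeq promoter windows of the GRCm38.p6 build, which run from 250 bases before to 50 bases after each start, 32 of the 39 genes had a window. The ER stress response element, CCAAT and CCACG with 9 free bases between them, was found on either strand in 9 of these 32 genes, against 37 of 27025 genes with a window (0.137%). Its shorter second form, ATTGG and CCACG with 1 free base between them, was found in Dnajb11 and Herpud1, against 12 of 27025 genes, and the element TGACGTGG in Sec24d, against 193 of 27025 (0.714%). In all, 12 of the 32 genes (37.5%) held at least 1 of the 3, against 0.884% of all genes with a window. These elements were first defined on ER chaperone genes, so this overlap is not independent of the choice of genes, and a match of letters is not a shown binding site. The composite element TGATGNAAT of the amino acid response was in none of the 32 windows and in 1.08% of all genes. The AP-1 motif with G or C in the middle (TGAGTCA on either strand), which the study links to Bach2, was in 2 of the 32 genes (6.25%), namely Hspa5 and Sec61b, and in 5.95% of all genes. With any base in the middle (TGANTCA) Eif2ak3 and Sel1l were added, 12.5% of the 32 against 8.97% of all genes. No gene of the 12 held more than 1 of the 3 unfolded protein elements, and Hspa5 held the AP-1 motif besides its element.

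The ER stress response elements of these genes are shown because they are the sequence feature that most of the chaperones share. They are printed 5′ to 3′ in the direction of the element, with its fixed letters in capitals and the free spacer in lower case.
Hspa5 (chr2:34772025-34772043, + strand): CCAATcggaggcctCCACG
Syvn1 (chr19:6046532-6046550, + strand): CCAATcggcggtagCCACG
Pdia6 (chr12:17266491-17266509, + strand): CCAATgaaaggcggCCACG
Dnajc3 (chr14:118937827-118937845, + strand): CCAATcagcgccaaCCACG
Creld2 (chr15:88819520-88819538, - strand): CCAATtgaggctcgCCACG
Calr (chr8:84847075-84847093, + strand): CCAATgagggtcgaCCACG
Canx (chr11:50325800-50325818, - strand): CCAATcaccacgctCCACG
Derl3 (chr10:75893242-75893260, - strand): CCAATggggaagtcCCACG
Hsp90b1, first of its matches (chr10:86705638-86705656, - strand): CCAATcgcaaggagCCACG
Hsp90b1, second (chr10:86705533-86705551, + strand): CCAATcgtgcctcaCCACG

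The 150 bases before the start are given for Hspa5, the main ER chaperone, and for Herpud1 and Sec24d, the genes whose response to re-stimulation differed most between the genotypes. The capitals mark the element found in each.
Hspa5 (GRCm38.p6, chr2:34771940-34772089, + strand): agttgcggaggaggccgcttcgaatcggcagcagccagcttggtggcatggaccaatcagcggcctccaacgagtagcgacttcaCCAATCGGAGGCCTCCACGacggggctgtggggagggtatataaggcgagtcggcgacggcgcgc
Herpud1 (GRCm38.p6, chr8:94386279-94386428, + strand): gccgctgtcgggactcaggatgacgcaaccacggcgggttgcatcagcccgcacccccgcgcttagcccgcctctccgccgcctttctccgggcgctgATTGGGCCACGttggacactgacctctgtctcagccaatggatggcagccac
Sec24d (GRCm38.p6, chr3:123267346-123267495, + strand): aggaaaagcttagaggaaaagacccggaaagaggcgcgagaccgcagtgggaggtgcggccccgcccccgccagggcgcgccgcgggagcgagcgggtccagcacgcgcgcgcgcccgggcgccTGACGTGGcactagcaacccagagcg

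Before the results, some facts of the arrays bear on every comparison between the genotypes. The share of probes well above background ran from 53.6% to 54.0%, and the 75th percentile of signal from 313 to 436. Signals below are those of the scanner, unscaled, and each log2 difference is taken after the 75th percentile of each array was subtracted. The median SD of a log2 difference between different probes of one gene was 0.09 for the genotype difference before re-stimulation and 0.11 after it, 0.16 and 0.14 for the responses of WT and Bach2-deficient cells, and 0.10 for the difference between the responses; it leaves out the spread between mice, cultures and hybridizations. The Bach2 probe gave signals of 2932 and 2633 in WT and Bach2-deficient cells before re-stimulation, then 3310 and 3080, so it gave no clear check of the labels. All 4 samples are labelled female, yet 3 of 4 Y-linked genes passed the background flag on each Bach2-deficient array and on no WT array. For its in vitro work the paper states that mice of both sexes were used. Xist, an RNA of female cells that silences 1 X chromosome, had signals of 9524 in WT and 4623 in Bach2-deficient cells before re-stimulation, then 5221 and 2585, so it was lower but still high on the Bach2-deficient arrays. Genotype and the share of male cells therefore cannot be told apart in any genotype difference below.

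The 10 genes of T cell identity were well above background on all 4 arrays. Marker lists of other cells moved with the genotype label. Of 10 B cell and plasma cell genes, 6 passed the flag in WT cells and 6 in Bach2-deficient cells before re-stimulation, with summed signals of 683 and 2438, and after it 5 and 6 were, with sums of 283 and 2119. Ms4a1, Cd79a, Pax5 and Tnfrsf17, which define B cells and mature plasma cells, passed the background flag on no array, while Igj, the joining chain of secreted antibodies, had a signal of 39.2 in WT and 970 in Bach2-deficient cells before re-stimulation. Mzb1, itself an ER protein of plasma cells that assists antibody assembly, had signals of 24.5 and 615. Of 9 mast cell and basophil genes with a probe, 1 and 6 were well above background before, and 0 and 6 after, in the order WT and Bach2-deficient, with summed signals between 67.2 and 85.0 on the WT arrays and between 1062 and 1233 on the Bach2-deficient arrays. Ms4a2, Mcpt4 and Tpsb2 passed the background flag on no array. Of 7 myeloid genes with a probe, 3 and 3 were well above background before re-stimulation and 1 and 2 after it, with summed signals of 232 and 622, then 90.7 and 319, and Lyz2, Itgam and S100a8 passed the background flag on no array. In such bulk samples a change in the number of cells of a type and a change in RNA per cell cannot be told apart, and the part of these cells in the ER genes was not tested.

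The first comparison asked how cultured Th cells labelled Bach2-deficient differed from WT cells before re-stimulation. Nearly all ER genes were higher on the Bach2-deficient array, by small amounts. Of the 38 genes, 35 were higher and 3 lower, while 49.6% of the 12136 genes measured were higher. Their median log2 difference was 0.32, against -0.00 over all genes measured. Past 2-fold there were 2 genes higher and 0 lower, and the share of 5.26% past 2-fold higher equals that of all genes (5.26%; 2.82% were past 2-fold lower). At 1.5-fold, 7 were higher (18.4%, against 9.58% of all genes) and 0 lower (against 6.7%). In a comparison added after the values were seen, 2504 other genes were taken with a mean signal within the interquartile range of the ER genes. Of these 53.4% were higher with a median of 0.02, and of the 18 ER genes in that range 17 were higher with a median of 0.28.

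After 4 h of re-stimulation the same question gave a larger shift. Of the 38 genes, 37 were higher on the Bach2-deficient array, against 51.9% of 12348 genes measured, and the median log2 difference was 0.46 against 0.02 over all genes. Past 2-fold, 4 genes were higher (10.5%), against 5.17% of all genes, and 0 were lower, against 3.85%. At 1.5-fold, 10 were higher (26.3%, against 10.8% of all genes) and 0 lower (against 9.18%). The 4 past 2-fold were Sec24d, Ero1l, Derl3 and Herpud1. Of the 18 ER genes within the interquartile range of signal, all 18 were higher with a median of 0.36, while the 2504 other genes in that range had a median of 0.02. These genotype differences come from separate arrays, and across the 38 genes they had a Pearson's r of 0.61 (Spearman's rho 0.62), against 0.62 (rho 0.49) over 10810 genes well above background on all arrays; genes are not independent replicates, and slide and batch were shared.

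**Figure D1:**
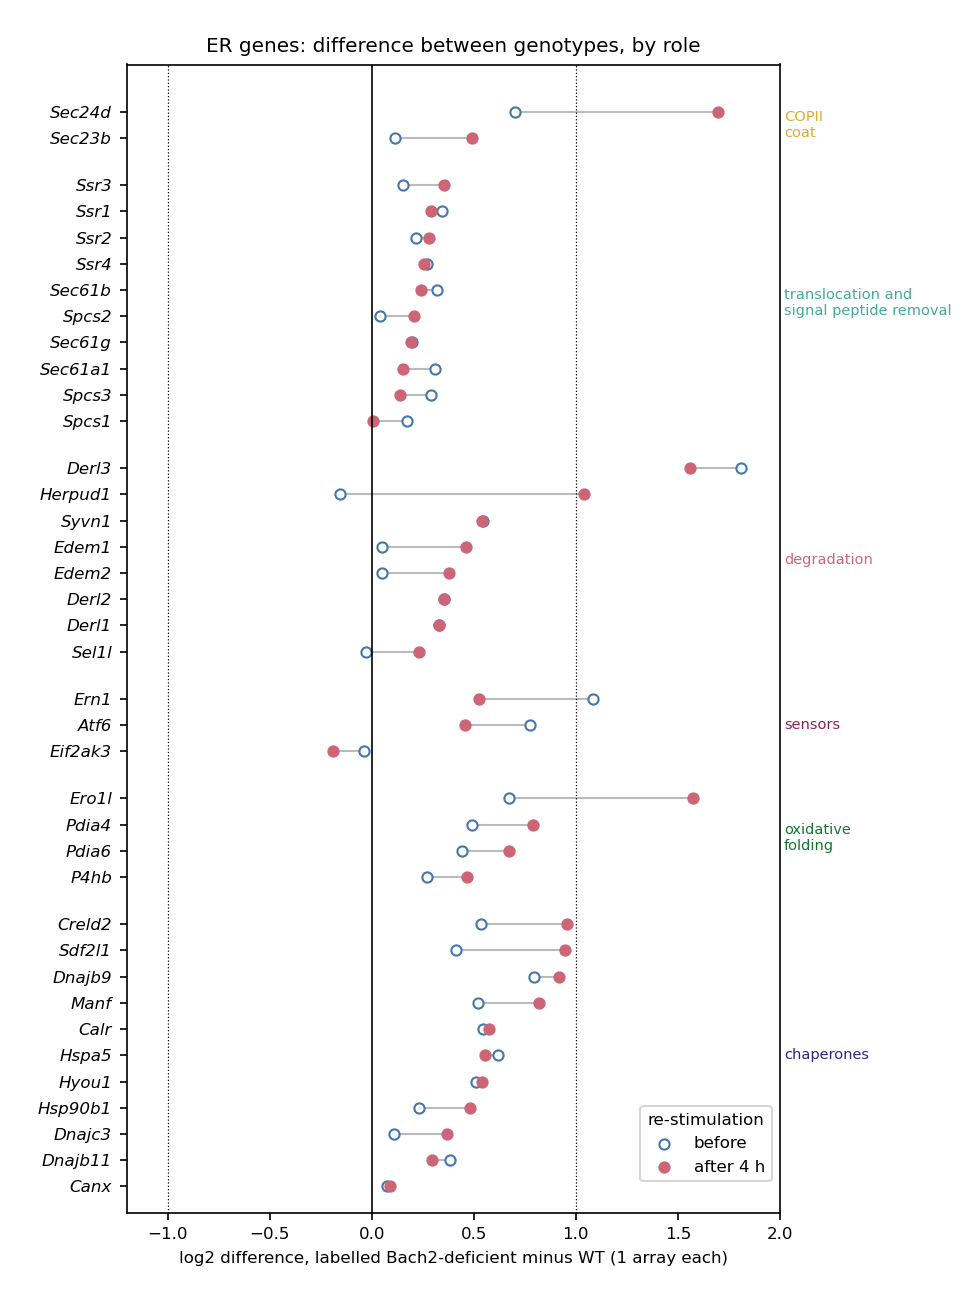
Log2 difference between the array labelled Bach2-deficient and the WT array for 38 ER genes, grouped by role, before (open circles) and after (filled circles) 4 h of re-stimulation, with 1 array per condition and no error bars; the dotted lines mark 2-fold. Of the open circles 35 lie above 0 and of the filled circles 37, and Sec24d, Ero1l, Derl3 and Herpud1 lie past 2-fold after re-stimulation.

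**Figure D2:**
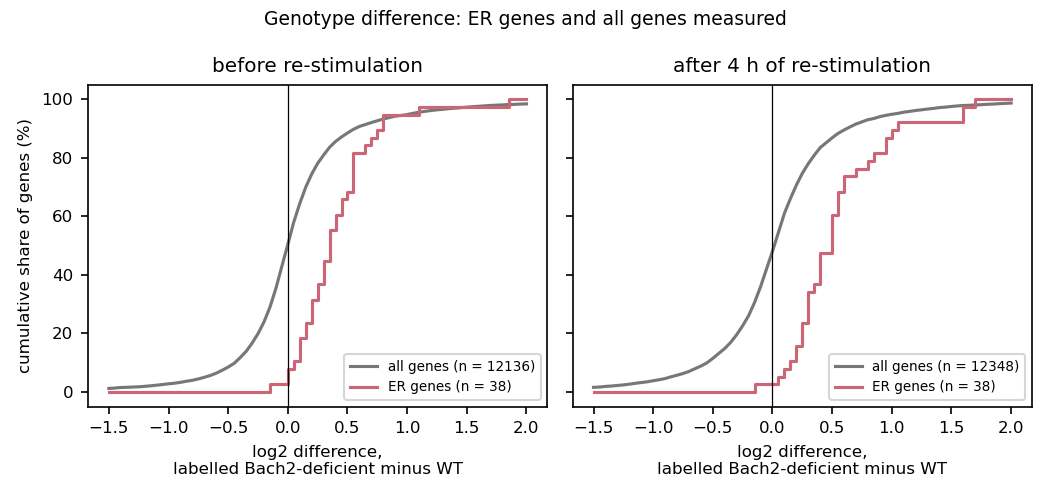
Cumulative share of genes (%) at or below each log2 genotype difference, in steps of 0.05, for 38 ER genes (red) and for all genes measured (grey; 12136 before, left, and 12348 after re-stimulation, right). The ER curve lies to the right of the other around 0, with medians of 0.32 and 0.46 against -0.00 and 0.02.

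The 11 chaperones and their helpers were all higher on the Bach2-deficient array both before and after re-stimulation, with medians of 0.51 and 0.56; Canx alone changed sign under an alternative, to -0.02 before re-stimulation with a background model (normexp) that adds an offset. Hspa5 (BiP), the main Hsp70 chaperone of the ER lumen, had signals of 13387 in WT and 20429 in Bach2-deficient cells before re-stimulation, then 31600 and 52405. It was thus higher on the Bach2-deficient array in both states, by 0.62 and 0.56 on the log2 scale (1.53-fold and 1.47-fold), and higher after than before re-stimulation in both genotypes. Hsp90b1 (Grp94), the Hsp90 of the ER, had signals of 18457 and 21538 before and 12664 and 19931 after re-stimulation, differences of 0.23 and 0.48. Dnajb9 (ERdj4), a co-chaperone of Hspa5 that also restrains Ern1, had signals of 133 and 229 before and 233 and 497 after. Its differences were 0.79 and 0.92, the former the largest of the group with the main scaling. Before re-stimulation the lowest value of Dnajb9 over the alternatives was 0.535, below the lowest of Hspa5, 0.556. Its other probes gave differences between 0.84 and 1.00 over both states.

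Creld2 and Sdf2l1, small ER proteins induced by unfolded protein, had the largest chaperone-group differences after re-stimulation. The signals of Creld2 were 10443 and 15066 before and 12226 and 26796 after, differences of 0.54 and 0.96. Those of Sdf2l1 were 4351 and 5758 before and 1735 and 3773 after, differences of 0.41 and 0.95. Manf, a secreted protein that stays with Hspa5 in the ER, differed by 0.52 and 0.82. The nucleotide exchange factor Hyou1 differed by 0.51 and 0.54 and the lectin chaperone Calr by 0.55 and 0.57. Canx, the membrane-bound partner of Calr, was the least different of the group with 0.07 and 0.09, and its other probes gave between 0.22 and 0.38. Dnajb11 and Dnajc3, further co-chaperones of Hspa5, differed by 0.38 and 0.11 before and by 0.30 and 0.37 after.

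Oxidative folding was represented by 4 genes, all higher in both states with medians of 0.47 and 0.73. Ero1l (named Ero1a in the gene table), the oxidase that feeds disulphide bonds to the isomerases, had signals of 2582 in WT and 4092 in Bach2-deficient cells before re-stimulation, then 3496 and 11759. The array of re-stimulated Bach2-deficient cells stood well above the other 3, with a genotype difference of 1.58 (2.98-fold) after re-stimulation against 0.67 before. A dimmer probe of the gene gave 1.14 and 0.29. The isomerases Pdia4, Pdia6 and P4hb were higher by 0.27 to 0.49 before and by 0.47 to 0.79 after re-stimulation.

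The sensors did not move as one. Ern1, the kinase and RNase that splices Xbp1 mRNA, had signals of 54.9 in WT and 116 in Bach2-deficient cells before re-stimulation, a difference of 1.08 (2.12-fold), and of 96.9 and 157 after it, a difference of 0.52. Atf6, the sensor that is cleaved to a transcription factor, had signals of 424 and 723 before and 890 and 1377 after, differences of 0.78 and 0.46, and its other probe gave 1.01 and 0.61. Eif2ak3, the kinase that slows translation, had signals of 705 and 684 before and 258 and 255 after, differences of -0.04 and -0.19. Ern1 and Atf6 were therefore higher on both Bach2-deficient arrays, while Eif2ak3 was close to the WT level in both states. Ern1 lay among the dim probes, and with a background model that adds an offset its difference before re-stimulation was 0.57 and its response in WT cells 0.65, both below 2-fold.

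In ER-associated degradation, 6 of 8 genes were higher before re-stimulation and all 8 after it with the brightest probes, with medians of 0.19 and 0.42. Derl3, a channel component of retrotranslocation that is known from secretory cells, had signals of 52.9 in WT and 185 in Bach2-deficient cells before re-stimulation, then 57.1 and 190. Both Bach2-deficient arrays thus stood above both WT arrays, by 1.81 (3.50-fold) and 1.56 (2.94-fold). The probe is dim, and with a background model that adds an offset the differences were 1.01 and 1.03. Igj and Mzb1, the plasma cell genes given above, were higher on the same arrays, and their part in this difference was not tested. Derl1 and Derl2, which are more broadly expressed relatives, differed by 0.33 and 0.35 both before and after re-stimulation.

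Herpud1, a ubiquitin-like protein that organizes the degradation complex, gave the clearest exception. Its signals were 5340 in WT and 4770 in Bach2-deficient cells before re-stimulation, then 2123 and 4916. The re-stimulated WT array stood apart from the other 3. The genotype difference was -0.16 before and 1.04 (2.05-fold) after re-stimulation, and the array held 1 probe for the gene. Edem1 and Edem2, lectins that pass misfolded glycoproteins to degradation, were also near the WT level before with their brightest probes. They had 0.05 each, or -0.01 each with scaling to the median, and were higher by 0.46 and 0.38 after. Dimmer probes of Edem1 gave 0.26 and 0.15 before and 0.77 and 0.55 after. The ubiquitin ligase Syvn1 (Hrd1) differed by 0.55 and 0.54 with its bright probe, while a dim probe gave -0.84 after re-stimulation and the mean over both -0.15, which turns its direction. Its partner Sel1l differed by -0.03 and 0.23.

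With their brightest probes the 10 genes of translocation and signal peptide removal were all higher in both states but by little. Their medians were 0.24 and 0.22 and their largest values 0.35 and 0.35. Sec61a1, the pore of the translocon, had signals of 21652 in WT and 26723 in Bach2-deficient cells before re-stimulation and 29305 and 36816 after it, differences of 0.31 and 0.16. The small subunits Sec61b and Sec61g differed by 0.32 and 0.20 before and by 0.24 and 0.19 after. The signal peptidase genes Spcs1, Spcs2 and Spcs3 differed by 0.04 to 0.29 before and by 0.01 to 0.21 after. A dimmer probe of Spcs3 gave 0.80 and 0.69, and another gave 0.30 and 0.10. For Ssr3, a translocon-associated gene, a dimmer probe gave 0.49 and 0.65, and another gave 0.16 and 0.28. Of the translocon-associated genes, Ssr2, Ssr3 and Ssr4 lay between 0.15 and 0.35 over both states with their brightest probes. Ssr1 had 0.35 and 0.29 with its brightest probe and -1.08 with the lowest of its other 4 probes before re-stimulation. With the mean over its probes Ssr1 had -0.27 and -0.12, and Spcs2 before and Spcs1 after re-stimulation had values from -0.04 to -0.01 with scaling to the median or quantile normalization. Over all genes with several probes measured, the probes shared 1 direction in 16 of 19 before and 17 of 20 after re-stimulation, with exceptions in Derl2, Sel1l and Ssr1 and in Sec61a1, Ssr1 and Syvn1.

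Of the COPII coat, which forms the vesicles that carry cargo from the ER, Sec24d selects cargo and Sec23b is its partner in the inner coat. Sec24d had signals of 132 in WT and 214 in Bach2-deficient cells before re-stimulation, then 68.0 and 248. The WT signal after re-stimulation was the lowest of the 4 and the Bach2-deficient one the highest, and the difference was 0.70 before and 1.69 (3.24-fold) after, or 0.44 and 1.18 with the background offset. Sec23b differed by 0.11 and 0.49.

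The next comparison asked what 4 h of TCR re-stimulation did in each genotype. Over all genes this response was large, with 13.2% of 12388 genes past 2-fold higher and 13.5% past 2-fold lower in WT cells. Among the ER genes 4 were past 2-fold higher in WT cells (10.5%) and 0 lower. With each array scaled to its median signal 4 were past 2-fold lower in WT cells, namely Eif2ak3, Herpud1, Sdf2l1 and Edem1, with values from -1.27 to -1.05. Under that scaling 29.1% of all genes past 2-fold in either direction were higher, against 49.3% with the main scaling. This splits the genes past 2-fold by direction. The share of all genes measured that were past 2-fold lower was not taken under that scaling. Whether the 4 ER genes exceed it is therefore not known. In Bach2-deficient cells, with the main scaling, 5 were past 2-fold higher (13.2%), against 12.4% of 12394 genes, and 1 lower, against 13%. The median log2 response was 0.36 in WT and 0.37 in Bach2-deficient cells, against -0.01 and 0.01 over all genes. Of the 38, 25 and 28 were higher after re-stimulation, against 49.8% and 50.6% of all genes. The medians and counts depend on the scaling. With each array scaled to its median signal the medians were 0.06 and 0.11 beside -0.30 and -0.26 over all genes. Then 20 and 23 of the 38 were higher, against 35.5% and 36.3% of all genes. With scaling to Cd3e the medians were 0.65 and 0.63 beside 0.29 and 0.26. In that case 29 and 34 were higher, against 63.3% and 63.2% of all genes. With no filter and no floor the medians of the ER genes stayed at 0.36 and 0.37 while those of all genes were 0.33 and 0.30, so the gap was 0.024 in WT and 0.075 in Bach2-deficient cells.

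Of the genes past 2-fold, Hspa5 had the largest value in WT cells and Ero1l in Bach2-deficient cells. Hspa5 rose by 1.72 (3.29-fold) in WT and 1.66 (3.16-fold) in Bach2-deficient cells. Dnajb9 rose by 1.29 and 1.42, the former 0.93 and below 2-fold with the background offset, and Atf6 rose by 1.55 and 1.23. Ern1 rose 2.46-fold in WT cells and had a log2 response of 0.74 in Bach2-deficient cells, while Ero1l and Creld2 were past 2-fold in Bach2-deficient cells alone, with 1.82 and 1.13 against 0.92 and 0.71 in WT cells. Whether these responses differ between genotypes could not be tested. Eif2ak3 fell by 1.12 in Bach2-deficient cells and had -0.97 in WT cells.

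Genes of the same role could differ in the direction of their response. In WT cells 5 genes were at least 1.5-fold lower, against 25.4% of all genes, and these were Eif2ak3, Herpud1, Sdf2l1, Edem1 and Edem2, with values from -0.97 to -0.66. The 13 genes at least 1.5-fold higher in WT cells, against 23.8% of all genes, included Syvn1 with 0.94, Sec61a1 with 0.92, Hyou1 with 0.70, Dnajb11 with 0.65 and Ssr2 with 0.62. In Bach2-deficient cells 13 were at least 1.5-fold higher, against 22.5% of all genes, and 1 lower, against 23.9%, and Sec61a1 had 0.76. Hsp90b1, in contrast to Hspa5, had responses of -0.06 and 0.19.

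**Figure D3:**
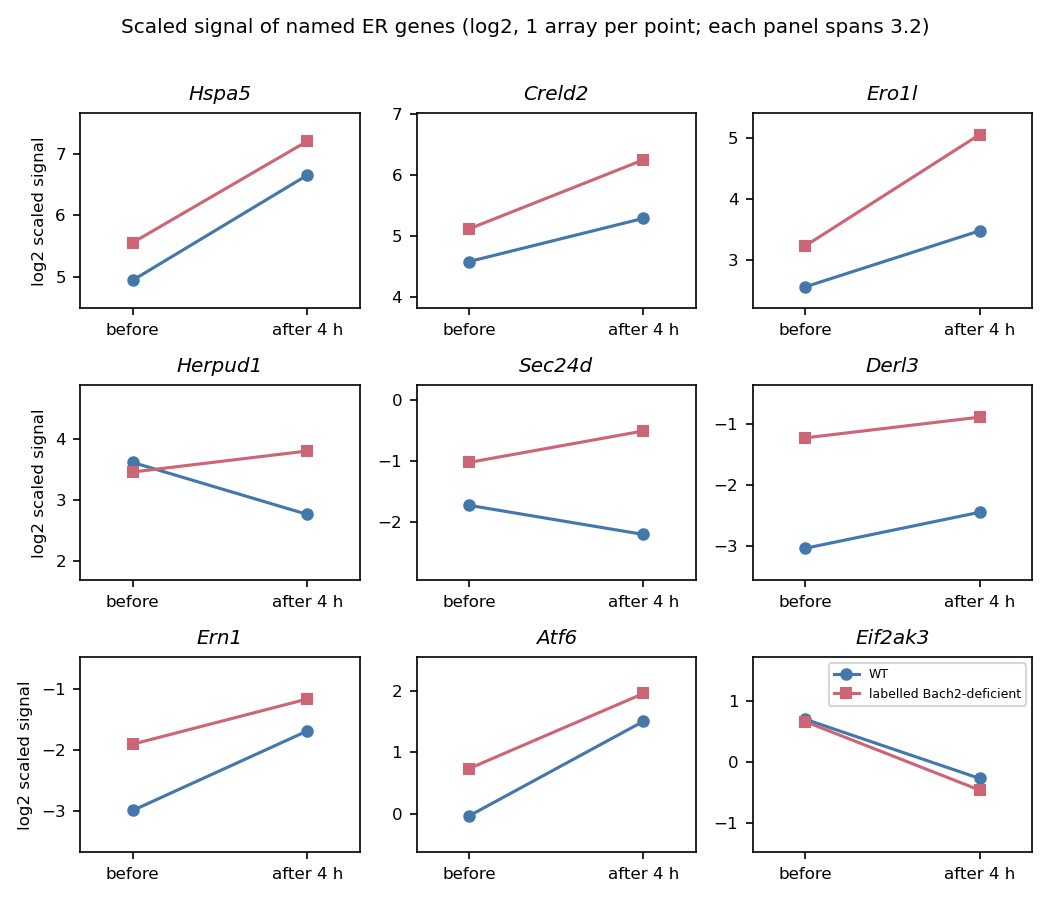
Scaled log2 signal of 9 ER genes before and after 4 h of re-stimulation in WT (circles) and labelled Bach2-deficient cells (squares), 1 array per point and no error bars, with the same span on each vertical axis. The lines of Hspa5 run nearly in parallel (responses of 1.72 and 1.66), Eif2ak3 is lower after re-stimulation in both genotypes, and the lines of Herpud1 and Sec24d run in opposite directions.

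The last comparison set the response of Bach2-deficient cells against that of WT cells, gene by gene. Across the 38 genes the responses of both genotypes, which share no array, had a Pearson's r of 0.86 (rho 0.88), against 0.90 (rho 0.89) over 10810 genes. The median difference between the responses was 0.05, against -0.00 over all genes, and 24 genes had the larger value in Bach2-deficient cells, against 49.5% of all genes. That median is smaller than the SD between probes, 0.10. With scaling to Cd3e 19 of the 38 had the larger value, against 43.5% of all genes. With scaling to the median it was 27, against 54.4%. Past 2-fold there was 1 gene higher, against 1.82% of all genes, and 0 lower, against 3%. At 1.5-fold there were 3 higher (6.29% of all genes) and 0 lower (7.48%).

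That gene was Herpud1, with a difference of 1.19, from -0.85 in WT to 0.34 in Bach2-deficient cells. Sec24d followed with 0.99, from -0.48 to 0.52, and Ero1l with 0.91, from 0.92 to 1.82. The next were Ern1 with -0.56, or -0.16 with the background offset, and Sdf2l1 with 0.54. Of 10810 genes 1.02% had a value as high as that of Herpud1, 1.89% as high as Sec24d and 2.40% as high as Ero1l. All 3 sensors had the smaller value in Bach2-deficient cells, with Atf6 at -0.32 and Eif2ak3 at -0.15, and Hspa5 and Sec61a1 differed by -0.06 and -0.16. Hsp90b1 differed by 0.25. The 10 genes of translocation and signal peptide removal lay between -0.17 and 0.20.

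**Figure D4:**
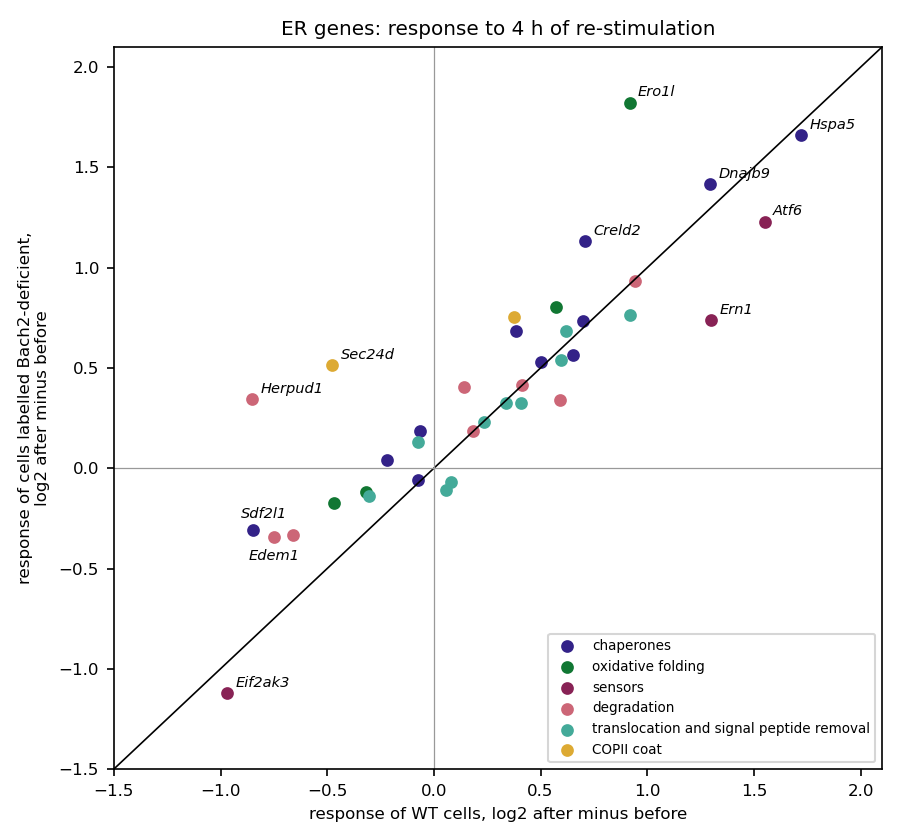
Response to 4 h of re-stimulation (log2, after minus before) in WT cells (horizontal) and in cells labelled Bach2-deficient (vertical) for 38 ER genes coloured by role, with 1 array per condition and the diagonal of equal response. Herpud1, Sec24d and Ero1l lie farthest above the diagonal with differences of 1.19, 0.99 and 0.91, and Ern1, a dim probe, lies below it with -0.56 (-0.16 with the background offset).

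Genes with and without a promoter element had different medians, as a description with no test. The 12 genes that held at least 1 of the 3 unfolded protein elements had a median genotype difference of 0.49 before and 0.56 after re-stimulation, against 0.27 and 0.35 for the 19 genes with a window and a probe but no element. The median responses were 0.54 and 0.52 for the former in WT and Bach2-deficient cells and 0.14 and 0.19 for the latter. Each set was mixed. Canx and Dnajc3 hold the element and differed by 0.07 and 0.11 before re-stimulation, and Herpud1, which holds the second form, had the lowest value of its set before re-stimulation.

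Other genes of the same pathway, taken from lists that were also written by function, were read in the same way. Of 81 such genes 80 were measured. On the Bach2-deficient array 58 (72.5%) were higher before re-stimulation and 68 (85%) after it, against 49.6% and 51.9% of all genes. Their medians were 0.11 and 0.22, smaller than those of the 38, against -0.00 and 0.02 over all genes. Past 2-fold, 1 was higher before re-stimulation, against 5.26% of all genes, and 5 after it, against 5.17%, and 0 were lower at either time. The 1 before was Pdia5, a disulphide isomerase, with signals of 56.8 in WT and 123 in Bach2-deficient cells, a difference of 1.12. The 5 after were Kdelr3, a receptor that returns proteins to the ER, with 1.33, the ER-bound factor Creb3l2 with 1.32, the stress genes Nupr1 and Chac1 with 1.24 and 1.14, and the glycosylation enzyme Alg2 with 1.03.

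The transcription factors that the sensors act through were each below 2-fold between genotypes. Xbp1 had signals of 2031 in WT and 2180 in Bach2-deficient cells before re-stimulation and 1308 and 1917 after it, differences of 0.11 and 0.38; the probe does not tell spliced from unspliced Xbp1 mRNA. Atf4 had signals of 3749 and 3944 before and 5247 and 6085 after, differences of 0.08 and 0.04. Ddit3 (Chop) had signals of 1610 and 1589 before and 492 and 957 after, differences of -0.01 and 0.79. On re-stimulation Ddit3 fell by 1.23 in WT cells, with -0.43 in Bach2-deficient cells, while the responses of Xbp1 were -0.15 and 0.11 and those of Atf4 0.97 and 0.93. The largest rises of these lists were those of Creb3l2, by 2.77 and 3.24, of Ppp1r15a, by 2.89 and 1.79, of Pdia5, by 2.19 and 2.03, and of Asns, by 1.92 and 1.79, in WT and Bach2-deficient cells. Of the 13 genes measured among these transcription factors and effectors, 9 were higher before and 11 after re-stimulation on the Bach2-deficient array. The shares were 69.2% and 84.6%, against 49.6% and 51.9% of all genes.

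The other lists also had medians above 0. The 13 other translocation genes had medians of 0.09 before and 0.16 after re-stimulation, the 10 other degradation genes 0.13 and 0.11, the 13 glycosylation genes 0.13 and 0.16, and the 18 other genes of vesicle transport 0.10 and 0.33. The 13 other folding genes had 0.18 and 0.34. Past 2-fold on re-stimulation, the signal recognition particle receptor genes Srprb and Srpr rose by 1.27 and 1.02 in WT cells, with 1.20 and 0.92 in Bach2-deficient cells, and Stt3a, a catalytic subunit of the oligosaccharyl transferase, rose by 1.10 and 1.01. Fkbp11 and Dnajc1, a prolyl isomerase and a co-chaperone of the ER, rose by 1.40 and 1.34 in Bach2-deficient cells, with 0.76 and 0.83 in WT cells.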

How the data were processed

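Total RNA of 4 samples was labelled with Cy3 and read on 4 one-colour arrays of 1 slide. The authors deposited Feature Extraction files (version 10.7.3.1 in the headers, 10.7 in the submitters' processing notes) whose processed signal is a background-subtracted intensity, and the authors deposited a log2 table whose values matched log2 processed signal scaled to the 75th percentile, to within 0.01, for 41001 to 41026 of 41173 probes. Spots flagged as outliers, 107 to 120 per array, were left out, and no spot was saturated. The intensity was divided by each array's 75th percentile and log2 was taken. Probes were named by RefSeq accession (GRCm38.p6 table; 27479 probes, 66.7%, matched). Each gene was read from its brightest probe. A gene counted as measured if that probe passed the background flag on 1 or more arrays of a comparison, and a value under the array's lowest passing signal (14.5 to 17.2 before scaling) was set to it. Differences between responses used the 10810 genes that passed the flag on all 4 arrays.

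With 1 array per condition no test was made and no p-value is given. A difference of 2-fold counted as a rise or fall, and the SD between probes of one gene stood in for the replicate spread. The number of arrays limits the precision. Genes past 2-fold, the sensors, Hspa5, Hsp90b1, Herpud1, Sec61a1, Xbp1, Atf4 and Ddit3 were named in each comparison, with the 5 largest differences between responses and at most 3 genes past 2-fold per other list; further members are described by role. The members and lists were chosen with earlier results of these data known. Alternatives were scaling to the median or to Cd3e, quantile normalization, normexp with an offset of 50, the authors' log2 table, the mean over probes, stricter and no filters, and 1.5-fold. The scripts were tested on simulated data. Python 3.11.15, numpy 2.4.6, pandas 2.3.3, matplotlib 3.10.9, R 4.3.3 and limma 3.58.1 were used.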

Additional observations from a re-analysis of the deposited data

Results flagged for a closer look

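Several genes moved in opposite directions under the same contrast, and with 1 array per condition none of these differences was tested. Herpud1 had a genotype difference of -0.16 before and 1.04 after re-stimulation on the log2 scale, and its response was -0.85 in WT and 0.34 in Bach2-deficient cells. The response of Sec24d was -0.48 in WT and 0.52 in Bach2-deficient cells. Among the other pathway genes, the genotype difference of Nupr1 was -0.45 before and 1.24 after re-stimulation. That of Ppp1r15a, a phosphatase subunit that restores translation, was 0.17 before and -0.93 after. That of Fkbp11 was -0.30 before and 0.34 after.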

How the results depend on the processing

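No median over the 38 ER genes changed sign under an alternative. Counts were compared by size only, so a count could not be labelled reversed. Of 198 counts and medians, 172 stayed within the spread between probes or within 1.5 times the count, while 26 moved. Of the values of single genes 1172 of 1444 stayed and 272 moved. These tallies include alternatives that could hardly move a single ER gene. All 38 passed the flag on all 4 arrays, so stricter or no filters left their values unchanged. The authors' log2 table matched the main scaling to within 0.01 for nearly all probes. With scaling to Cd3e, which by construction shifts all genes alike, the median genotype difference before re-stimulation was 0.46, and 7 genes were past 2-fold higher after it. The responses of WT and Bach2-deficient cells then had medians of 0.65 and 0.63, with 8 and 9 genes past 2-fold higher and 0 lower in Bach2-deficient cells. Of all genes past 2-fold in either direction, 64.5% were then higher in the genotype difference after re-stimulation (57.3% with the main scaling). In the responses of WT and Bach2-deficient cells it was 71.5% and 67.7% (49.3% and 48.9% with the main scaling). With scaling to the median, the response medians were 0.059 and 0.11, with 4 genes past 2-fold lower in WT and 3 higher in Bach2-deficient cells. A difference between responses past 2-fold higher was then found for 2 genes, as with quantile normalization (2). Of all genes past 2-fold in either direction, 29.1% and 30.8% were higher in these responses. In the difference between responses it was 42.6%, and 40.5% with quantile normalization. With normexp, 1 gene was past 2-fold higher before re-stimulation, the WT response had a median of 0.19 with 2 genes past 2-fold higher, and 0 genes were lower in Bach2-deficient cells. Of all genes past 2-fold, 71.1% were then higher in the genotype difference before re-stimulation. In the responses of WT and Bach2-deficient cells it was 44.5% and 44.9%. With the mean over probes, 1 gene had a difference between responses past 2-fold lower, while 38.1% of all genes past 2-fold in that difference were higher. With no filter and no floor, the median of the ER genes minus that of all genes was 0.23 before re-stimulation and 0.024 and 0.075 for the responses of WT and Bach2-deficient cells. At 1.5-fold, 7 genes were higher before and 10 after re-stimulation, against 9.58% and 10.8% of all genes. The responses had 13 higher and 5 lower in WT and 13 higher in Bach2-deficient cells, against 23.8%, 25.4% and 22.5% of all genes. The percentages given beside the 2-fold counts of the alternative scalings split the genes past 2-fold by direction. Shares of all genes measured were not taken for these scalings, so whether the ER counts exceed them is not known. Apart from the shifts made by scaling and threshold, the cause was not tested. Counts and medians over the ER genes minus all genes, and the 2-fold counts of the difference between responses, were followed after seeing the data. No paired analysis was possible because each condition had 1 array. Signals near background limit Ern1, Derl3 and Sec24d most.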

Other observations

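Chaperones of the cytosol and mitochondria, 16 genes listed by function, had genotype differences with medians near 0. Of these, 8 were higher on the Bach2-deficient array before re-stimulation and 9 after it, with medians of -0.01 and 0.03 on the log2 scale, against 49.6% and 51.9% of all genes. On re-stimulation 15 of the 16 were higher in WT cells and 16 in Bach2-deficient cells, with a median of 0.42 in each, and 4 and 3 were past 2-fold higher, against 13.2% and 12.4% of all genes. Whether these genes differ from the ER genes was not tested.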
